A study of Drosophila melanogaster with 60 samples.

Results

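The X chromosome peaks are the stretches of X that the authors listed as enriched with either of 2 antibodies in brains of male Drosophila melanogaster. A peak was taken when its row in the deposited table lay on X and its mean normalized value over the 30 libraries of that antibody was at least 10. This gave 1604 of 1633 X peaks with H3K4me3, which are 11.1% of the 14513 peaks tested, and 4819 of 4832 X peaks with RNA polymerase II (RNAPolII), 22.9% of 21076. All 12857 H3K4me3 and 15909 RNAPolII peaks on the autosomes (2L, 2R, 3L, 3R and 4) served as background. The X peaks nearest the limit averaged 10.004 on the kept side and 9.98 on the other with H3K4me3, and 10.005 and 9.97 with RNAPolII. Between 10 and 20 lay 373 and 1049 of the kept X peaks.

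Male flies carry a single X and pairs of autosomes. Dosage compensation raises the transcription of that X: the MSL complex, which holds the noncoding roX1 and roX2 RNAs and the acetyltransferase MOF, spreads over active X genes and acetylates histone H4. H3K4me3 is a modification of histone H3 that sits around the start sites of active genes, and RNAPolII is the enzyme that transcribes them. In CUT&RUN an antibody directs a nuclease to the chromatin it binds, and the released DNA is sequenced. The copy number of X and the biology of X cannot be told apart in any level compared between X and autosomes here.

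The groups were 4 mutants and the wild type. Or47bmut males had the alleles Or47b2/3 and Or67dmut males Or67dGAL4/GAL4, both in odorant receptors that detect pheromones. In frumut males (fruLexA/4-40) the courtship regulator fruitless was mutated, and in dsxmut males (dsxf00683-d07058/f01649-d09625) the sex differentiation gene doublesex. The labels give the X of the first 3 mutants as w+/Y and that of dsxmut as w-/Y, with w the eye colour gene white. Canton-S (CS) was the wild type. Each genotype was kept singly (SH) or in groups (GH), with 3 libraries per group and antibody, 60 in all. An H3K4me3 library pooled 15 brains and an RNAPolII library 30. Nothing in the labels says that the strains share an X chromosome, so the named mutation and other differences of the strain cannot be told apart. Fewer cells of a type and less signal per cell cannot be told apart either in pooled brains.

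Reads in peaks, recovered for all but 6 libraries, ranged over 2309386 to 9269525 with H3K4me3 (26 libraries) and 3007711 to 6459322 with RNAPolII (28 libraries). Values below are the authors' normalized values, and a log2 change is on the scale of log2(value + 1). Of the neuronal genes nSyb, Syt1 and brp had H3K4me3 values of 1213 to 1550 and elav 27.8, with 849 for RNAPolII at elav. Markers of other cells were present too. Of the glial genes, repo and nrv2 had no H3K4me3 peak but RNAPolII values of 568 and 639. Gs2 and alrm had H3K4me3 values of 25.9 and 57.5 and RNAPolII values of 121 and 183. The 4 photoreceptor genes ninaE, trp, ninaC and Arr2 had H3K4me3 values of 17.7 to 42.9. With RNAPolII, trp had 421 and Arr2 523, and ninaE and ninaC had no peak. Of the muscle genes, up and wupA had no H3K4me3 peak and Mhc had 60.8. Their RNAPolII values were 22.8 at up, 43.3 at wupA and 403 at Mhc. The fat body genes Lsp2 and FASN1 and the testis genes bam and Mst84Da had no H3K4me3 peak, whereas Yp1 had 21.3 and vas 1036. All 6 had an RNAPolII peak, with 1399 at FASN1, 400 at Lsp2 and 84.8 at Yp1. For the testis genes the RNAPolII values were 339 at bam, 491 at vas and 93.5 at Mst84Da. The part of other cells in the results was not tested. A gene given here without a peak, or with a weak one, need not lack signal, since longer stretches may be missing (lengths below). In H3K4me3 the spread between strong and weak peaks differed between libraries (from 5.75 to 6.54 log2 units in CS, for example), and results that move with it are given with it. In RNAPolII, Or47bmut GH 3, Or47bmut SH 3 and Or67dmut GH 3 were treated as standing apart, after earlier results of these data. Their median correlations with the other libraries were 0.962, 0.957 and 0.961, with 0.972 the highest of any library; dsxmut GH 2, which was kept, had 0.961. Counts without the 3 are given below.

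On X, H3K4me3 peaks were fewer than on the autosomes and on average stronger, and the scarce ones were mostly the weak. X had 69.4 peaks per Mb against 117 on the autosomes. Strong peaks, those averaging 100 or more, were about as dense, 32.3 per Mb on X (746 peaks) and 33.4 on the autosomes. Weaker peaks numbered 37.1 per Mb on X and 83.6 on the autosomes. Strong peaks therefore made up 46.5% of the X peaks against 28.5% of the autosomal ones, and the median value was 74.6 on X and 32.1 on the autosomes. The arms 2L, 2R, 3L and 3R ranged from 111 to 125 peaks per Mb with medians of 31.0 to 33.3, so X lay outside their range in both. The fourth chromosome, which is mostly heterochromatin, had a median of 57.2. Among strong peaks alone X was the lower, with a median of 633 against 713 and 373 against 475 per kb of peak. The strongest peaks were scarcer on X too, with 6.23 per Mb against 7.76 between 1000 and 1800. Between 1800 and 3200 there were 1.47 against 2.96.

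X also had fewer H3K4me3 peaks away from genes. Of its peaks 82 lay over no gene of the annotation, 5.11% against 11.7% on the autosomes. An RNAPolII peak overlapped 88.2% of H3K4me3 peaks on X and 76.6% on the autosomes. Of the strong X peaks, 81.6% held the end of a gene, against 39.4% when all were shifted by 5000 bp and 23.1% at 50000 bp, in the annotation that gave the gene names. For strong RNAPolII peaks the shares were 52.7%, 49.2% and 42.6%, so a name there says only which gene the peak overlaps. The median length was 1143.5 bp on X and 970 bp on the autosomes, and the longest peaks had 3489 and 3487 bp. On 2L, 2R, 3L and 3R the longest had 3482 to 3487 bp, and with RNAPolII X and these arms reached 13452 to 13526 bp. Such like ends may come from a limit on peak length, which no source used here states and which was not tested. Longer stretches may be missing, so densities and shares of genes hold for the listed peaks only. Along the chromosome each 2 Mb window from 0 to 20 Mb held 128 to 172 H3K4me3 peaks, whereas 20 to 22 Mb held 75 and 22 to 24 Mb, at the centromere end, held 27.

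With RNAPolII the picture was the reverse, since X had many short and weak peaks. There were 205 RNAPolII peaks per Mb on X against 144 on the autosomes. Weak peaks, under 100, numbered 152 per Mb on X and 61.4 on the autosomes, while strong ones numbered 53.6 and 82.9. The median length was 1356 bp on X and 2789 bp on the autosomes. Peaks covered less of X for all their number, 44.9% of its span against 53.3%. The median value was 43.1 on X and 134 on the autosomes, where the 4 large arms ranged from 122 to 152 and the fourth chromosome had 83.1. The fourth chromosome had 233 RNAPolII peaks per Mb, 135 of them weak. Per kb of peak the gap was smaller, 33.2 on X and 44.0 on the autosomes. Only part of these peaks overlapped an H3K4me3 peak, 23.1% of them on X and 43.3% on the autosomes. Among strong RNAPolII peaks the shares were 65.6% and 68.6%.

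**Figure D1:**
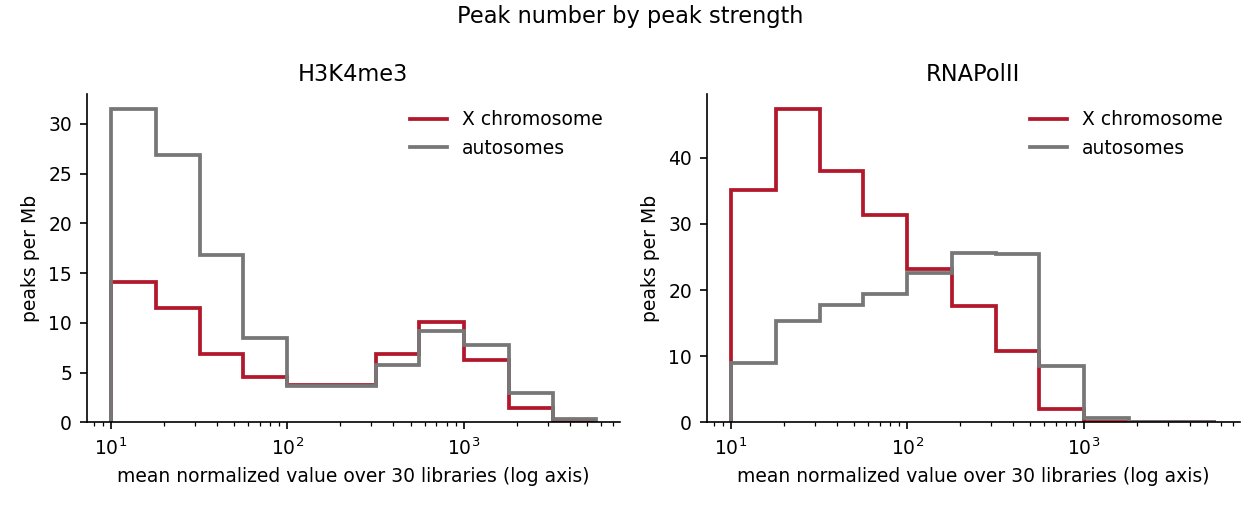
Number of peaks per Mb (vertical axis) by mean normalized value over the 30 libraries (horizontal log axis), for H3K4me3 and RNAPolII, on X and on the autosomes. The H3K4me3 curves lie close together from 100 to 1000, and above 1000 the X curve is the lower. Below 100 they part, with 37.1 weak peaks per Mb on X against 83.6 on the autosomes. In RNAPolII the X curve lies to the left of the autosomal one.

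Seen by gene, 54.5% of the 2192 protein-coding X genes had an H3K4me3 peak and 82.1% an RNAPolII peak, against 62.4% and 76.2% of 11719 autosomal genes. A strong H3K4me3 peak lay over 45.6% of the X genes and 41.5% of the autosomal genes. An X gene with RNAPolII held 2.79 such peaks on average against 2.03 for an autosomal gene. The most were over kirre, which encodes a cell adhesion protein (102 peaks), and Ten-a, a teneurin of synaptic partner matching (85). The potassium channel gene Sh had 42 RNAPolII peaks and 22 H3K4me3 peaks. Genes with both a strong H3K4me3 peak and an RNAPolII peak numbered 868 on X and 3928 on the autosomes. Their median RNAPolII value was 311 on X and 494 on the autosomes, or 45.5 and 69.0 per kb.

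RNAPolII was lower at X peaks also within classes of H3K4me3 value. Among H3K4me3 peaks of 100 to 300, the RNAPolII peak over them had a median of 51.2 per kb on X (150 peaks) against 80.9 on the autosomes, with median H3K4me3 values of 170 on both. Between 300 and 1000 the medians were 46.2 on X (343 peaks) and 70.9 on the autosomes. At 1000 and above they were 49.0 (145 peaks) and 76.0, but there the median H3K4me3 value was lower on X too, 1286 against 1453. The gap was narrower at weak H3K4me3 peaks: 41.3 on X and 48.2 on the autosomes between 10 and 30, and 49.4 and 59.9 between 30 and 100. On X the per kb value hardly moved with H3K4me3 strength, while on the autosomes it was higher in the 3 stronger classes. These are descriptions of 1 set of peaks, in which neighbouring peaks share a gene, and no test was made of them.

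**Figure D2:**
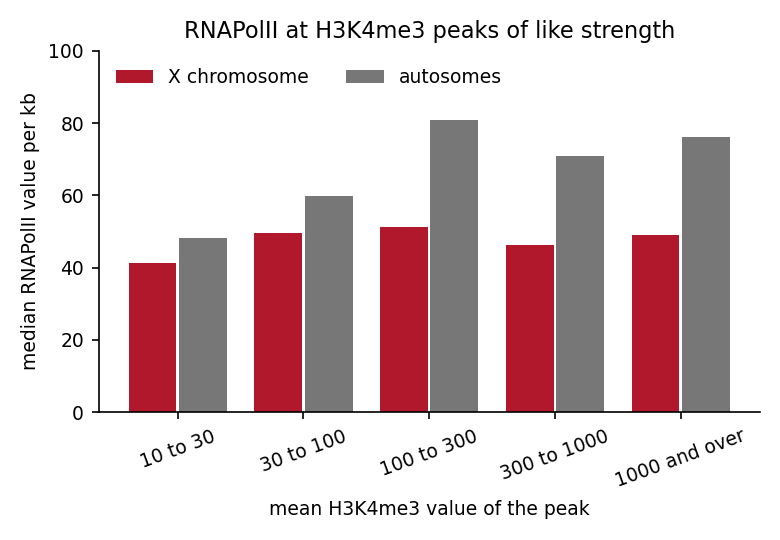
Median RNAPolII value per kb of RNAPolII peak (vertical axis, from 0) at H3K4me3 peaks grouped by their mean value (horizontal axis), on X and on the autosomes. The X bars stay between 41.3 and 51.2, and the autosomal bars lie above them in all 5 classes, at 48.2 to 80.9.

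The highest H3K4me3 means were over mRpS14, a mitochondrial ribosomal protein gene, with Naa15-16 (X:19478441-19481262, 4153 in Or67dmut and 3449 in CS), then over Gbeta5, a G protein subunit gene (X:8150577-8153855, 3799.7 and 3142). Idh3a, of the citric acid cycle, shared a peak with the corepressor gene CoRest (X:19520541-19523404, 3380.2 and 2949). The highest RNAPolII means lay between Rilpl and futsch, a gene of the neuronal microtubule cytoskeleton (X:1397640-1399942, 879 in dsxmut and 1159.7 in CS), and over the kinase gene Tlk (X:3775819-3787034, 989.6 and 1036). Next was elav, which encodes a neuronal RNA-binding protein (X:519936-524695, 693 in dsxmut and 883 in CS). None of these 3 RNAPolII differences between dsxmut and CS passed the test.

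To ask whether the X as a whole shifted against the autosomes in a mutant or with housing, the median log2 value of the X peaks minus that of the autosomal peaks was taken in each library. With H3K4me3 it averaged 1.16 over the 30 libraries and ran from 0.64 to 1.60. It was 1.34 ± 0.07 in Or67dmut (1.23 to 1.44) and 0.93 ± 0.21 in CS (0.64 to 1.23; SD, n = 6 each). The difference of 0.41 had an exact permutation p of 0.00433, adjusted over 10 tests to 0.0433 (two-sided). The adjusted p was 0.0649 when any 1 of Or67dmut GH 1, GH 2, GH 3, SH 2 and SH 3 was left out, 0.0649 with no filter on the mean and 0.0955 with the replicate number as a block. In Or47bmut the level was 1.13 ± 0.29, in frumut 1.13 ± 0.27 and in dsxmut 1.26 ± 0.23, against the same CS libraries. Their differences from CS were 0.20, 0.20 and 0.34, with adjusted p of 0.275, 0.275 and 0.0938 in the same exact permutation test. Single minus group housing gave 0.12, adjusted p = 0.275 in a permutation within genotypes.

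The Or67dmut shift came with a lower autosomal median as well as a higher X median. The median X value was 76.1 ± 1.9 in Or67dmut and 68.9 ± 4.1 in CS, and the median autosomal value was 29.6 ± 1.5 and 35.9 ± 3.3. The spread between strong and weak peaks moved with it, at 6.65 ± 0.13 log2 units in Or67dmut (6.43 to 6.82) and 6.06 ± 0.27 in CS (5.75 to 6.54); its part in the result was not tested. Over strong peaks alone, a choice made after these values were seen, X minus autosomes in Or67dmut differed from CS by -0.0199. In summed values it differed by 0.0225 (adjusted p = 0.455 in the exact permutation test). The share of all H3K4me3 signal on X was 14.2% ± 0.3 in Or67dmut and 14.0% ± 0.3 in CS.

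With RNAPolII the X minus autosome level was nearly the same in all libraries, -1.61 on average and between -1.70 and -1.53. In dsxmut it was -1.64 ± 0.02 against -1.57 ± 0.05 in CS, a difference of -0.07 with an exact permutation p of 0.0130 and an adjusted p of 0.0649. For the other 3 mutants the differences from CS ranged from -0.05 to -0.02, with adjusted p from 0.275 to 0.366. Housing gave 0.01 (adjusted p = 0.561). Across the 30 libraries X held 11.2% to 12.4% of the RNAPolII signal.

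**Figure D3:**
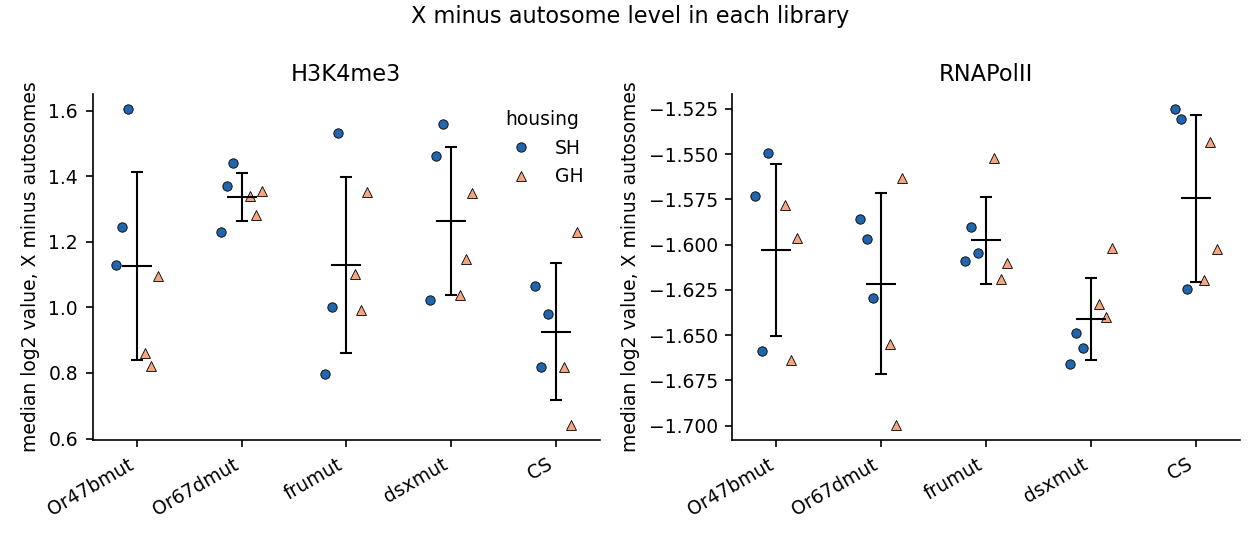
Median log2 value of X peaks minus that of autosomal peaks in each library (vertical axis) by genotype, with SH as circles, GH as triangles and bars for the mean ± SD of 6 libraries. In H3K4me3 the Or67dmut libraries lie between 1.23 and 1.44 and those of CS between 0.64 and 1.23, and in RNAPolII all 30 lie between -1.70 and -1.53.

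The peaks were then tested singly, each mutant against CS over both housings and 6 libraries against 6, with limma across all tested peaks and Benjamini-Hochberg adjustment at 0.05. All 4 comparisons share the CS libraries, so a peak at which CS differs appears in several of them. With H3K4me3, Or67dmut had 474 X peaks called, 29.6% of them against 29.9% of the autosomal peaks. Of the X peaks 433 rose and 41 fell, while 16.4% of autosomal peaks rose and 13.6% fell. Such a split was not particular to X: on the fourth chromosome 84 peaks rose (51.5%) and 2 fell (1.23%). Among strong X peaks 382 rose (51.2%, against 53.2% of strong autosomal peaks) and 0 fell. Among weak X peaks 51 rose and 41 fell (5.94% and 4.78%), against 1.65% and 18.6% of the weak autosomal peaks. Most changes were small, with a median of 0.28 among the called X peaks, and 20 passed 2-fold. With the spread of each library as a covariate 3 X peaks were called, and centring on the autosomal medians gave 928. Leaving out 1 library at a time, CS GH 2 gave the lowest count, 133.

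In dsxmut, 97 X peaks were called with H3K4me3 (6.05%, against 5.23% of autosomal peaks), 84 higher and 13 lower (3.17% and 2.07% of autosomal peaks). In frumut there were 41 (2.56% against 2.08%), 26 higher and 15 lower (1.17% and 0.91% of autosomal peaks). In Or47bmut 2 rose (0.125% of X peaks called, against 0.762% of autosomal ones) and 0 fell, where 0.436% of autosomal peaks rose and 0.327% fell. With the spread as a covariate the split turned, to 12 higher and 15 lower in dsxmut and 25 and 31 in frumut. The spread was 6.27 ± 0.41 log2 units in frumut and 6.45 ± 0.22 in dsxmut. Without CS GH 3 the dsxmut count was 339 and without CS GH 2 it was 37. For frumut the count was 87 without frumut SH 1 and 21 without frumut SH 3. Libraries of the 2 sides did not overlap at 71 of the 474 peaks in Or67dmut (62 higher, 9 lower), 4.43% of X peaks against 6.21% of autosomal peaks. They did not overlap at 21 called X peaks in frumut (13 and 8, 1.31% against 0.848%), at 38 in dsxmut (30 and 8, 2.37% against 1.8%) and at 1 in Or47bmut (0.0623% against 0.373%). Over the 4 comparisons 452 X peaks (28.2%) were called in 1 mutant, 60 (3.74%) in 2 and 14 (0.873%) in 3, against 27.3%, 3.81% and 0.762% of autosomal peaks. No X peak was called in all 4 in limma, against 0.187% of autosomal peaks. An F test over the genotypes called 281 X peaks, 17.5% against 16.9% of the autosomal ones.

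RNAPolII changed at few X peaks, and the split of higher and lower calls changed when the spread of the libraries was added as a covariate. The part of the spread in these calls was not tested. In dsxmut 52 were called, 1.08% against 1.67% of autosomal peaks, with 13 higher and 39 lower, against 0.805% and 0.867% of autosomal peaks. In frumut there were 26 (0.54% against 0.861%), 6 higher and 20 lower, against 0.415% and 0.446%. Or67dmut had 9, all lower (0.187%, against 0.899% of autosomal peaks called, 0.402% higher and 0.497% lower). Or47bmut had 3, with 1 higher and 2 lower (0.0623%, against 0.358% of autosomal peaks called, 0.207% higher and 0.151% lower). Libraries did not overlap at 35 of the dsxmut peaks (10 higher, 25 lower), 0.726% of X peaks against 1.18% of autosomal ones. The counts were 15 in frumut (3 and 12, 0.311% against 0.647%), 6 in Or67dmut (0.125% against 0.691%) and 1 in Or47bmut (0.0208% against 0.289%). With that spread as a covariate the split turned upward: 45 higher and 6 lower in Or47bmut, 37 and 13 in Or67dmut, 35 and 27 in frumut and 80 and 42 in dsxmut. The RNAPolII spread was 4.49 ± 0.05 log2 units in dsxmut and 4.61 ± 0.10 in CS. Without the 3 libraries that stood apart the counts were 199 in dsxmut, 58 in frumut and 33 in Or67dmut. The F test called 61 X peaks (1.27%, against 2.49% of the autosomal ones).

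**Figure D4:**
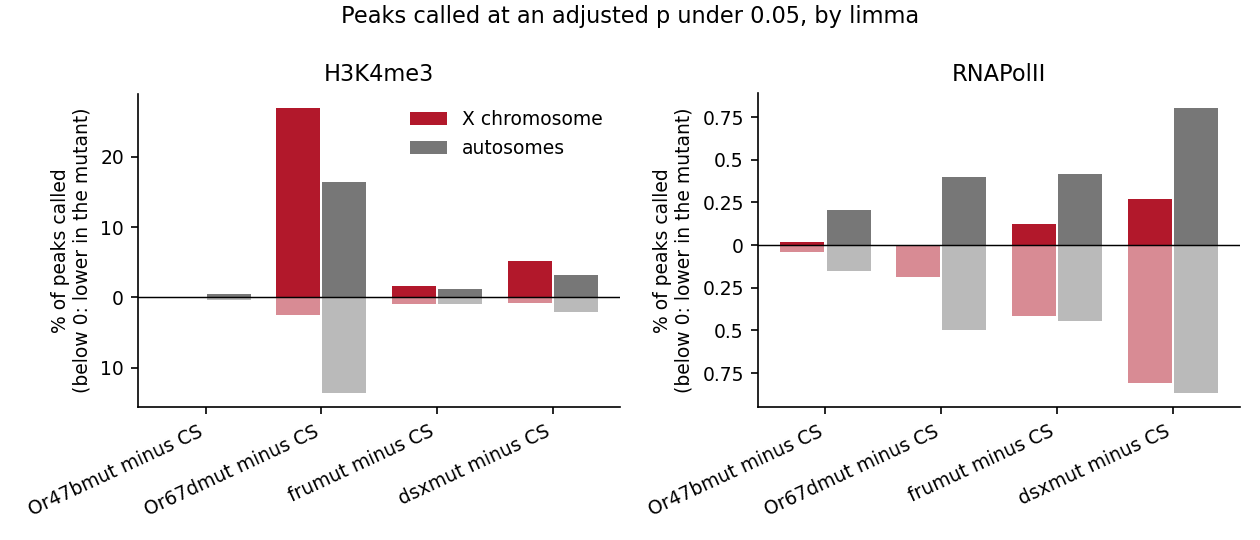
Percent of X and of autosomal peaks called higher (above 0) or lower (below 0, paler) in each mutant against CS by limma, for H3K4me3 and, on a finer scale, RNAPolII. In Or67dmut H3K4me3 rose at 27.0% of X peaks and fell at 2.56%, against 16.4% and 13.6% of autosomal peaks.

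In dsxmut both marks fell at period (per), which encodes a core repressor of the circadian clock. Its H3K4me3 peak, X:2684594-2687770, had a lowest, median and highest value of 238, 275 and 351 in frumut and 181, 217 and 256 in dsxmut, against 403, 447 and 562 in CS. All mutant libraries of both groups lay below all those of CS. H3K4me3 fell in frumut to 284 ± 38.99 (log2 change -0.70, adjusted p = 1.67e-07) and in dsxmut to 219.8 ± 28.1 (-1.07, adjusted p = 2.62e-14), against 462 ± 63.7 in CS (SD, n = 6 each, limma). It was 501 in Or47bmut and 523 in Or67dmut. The RNAPolII peak over per, X:2683331-2687942, ranged over 319 to 429 in dsxmut and 536 to 800.1 in CS. RNAPolII fell there in dsxmut (364 ± 39.97 against 658 ± 96.7, -0.85, adjusted p = 0.000323), and in frumut it was 464 ± 35.2 (-0.49, adjusted p = 0.103). Both H3K4me3 calls held under every setting tried and without any 1 library.

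Besides per and white, both antibodies moved the same way at 1 place on X, in dsxmut. The small H3K4me3 peak over Ldaf1, a lipid droplet gene, fell by 0.81 (adjusted p = 0.0263) and the RNAPolII peak that spans it and arm, the beta-catenin gene, fell by 0.42 (adjusted p = 0.0355). No other X peak with changed H3K4me3 had an RNAPolII peak over it that was called. Among H3K4me3 falls in dsxmut over an RNAPolII peak, RNAPolII fell too at 2 of 9 on X and 26 of 209 on the autosomes. For rises in dsxmut the counts were 1 of 70 and 8 of 330, and for falls in Or67dmut 1 of 39 and 26 of 1276. Of the 433 X peaks with higher H3K4me3 in Or67dmut, 366 overlapped an RNAPolII peak, and 0 of those RNAPolII peaks was called in either direction. Their median RNAPolII log2 change was -0.07. On the autosomes 1688 of 2104 such peaks overlapped an RNAPolII peak. There RNAPolII was called the same way at 10 and the other way at 2, with a median change of -0.02.

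H3K4me3 fell in both frumut and dsxmut also at CG17167, mst and AdamTS-B. Both AdamTS-B calls (-0.86, adjusted p = 0.0458 and -0.83, adjusted p = 0.0363) were lost with the spread as a covariate, with centring and with edgeR. At CG17167, near the centromere end (X:23078774-23079177), the lowest, median and highest H3K4me3 values were 18.3, 29.8 and 41.4 in frumut and 5.64, 8.58 and 11.6 in dsxmut, against 84.6, 112 and 131 in CS. H3K4me3 fell in frumut (-1.93, adjusted p = 4.78e-15) and in dsxmut (-3.56, adjusted p = 3.35e-30), and the groups did not overlap with CS. At misato (mst), a gene of chromosome segregation (X:21388935-21389499), it was 58.5 ± 15.7 in frumut and 47.1 ± 11.7 in dsxmut, against 136 ± 19.1 in CS. Both fell (-1.23, adjusted p = 4.73e-10 in frumut, -1.53, adjusted p = 5.44e-14 in dsxmut). Neither gene passed in Or47bmut, and CG17167 was 152 ± 12.3 in Or67dmut (0.49, adjusted p = 0.0272), a rise lost with the spread as a covariate, with quantile normalization and in edgeR. The falls at CG17167 and mst held under every setting tried.

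In dsxmut H3K4me3 fell further at CG9240 (X:15700410-15701279, 315 ± 47.9 against 681 ± 78.98 in CS, -1.11, adjusted p = 3.59e-15). It fell also at CG3191 (X:2251076-2252024, 100.5 ± 46.7 against 298 ± 36.9, -1.70, adjusted p = 3.59e-15) and CG3630 (X:2170462-2171069, 20.3 ± 9.22 against 63.8 ± 4.15, -1.73, adjusted p = 7.7e-11). CG9240 passed in the other direction in Or67dmut (0.39), and CG3630 in the same direction (-0.52); both calls were lost with the covariate. CG15456 rose in dsxmut (X:20426553-20427070), with a lowest, median and highest value of 887, 1062 and 1088 in dsxmut against 424, 502 and 552 in CS (log2 change 1.02, adjusted p = 3.68e-14). CG15456 was 653 in Or67dmut and 680.3 in frumut, which also passed (0.39 and 0.42), the Or67dmut call not with the covariate or quantile normalization. Mgstl, a microsomal glutathione transferase gene, rose in dsxmut (131 ± 21.8 against 78.6 ± 15.5, 0.74, adjusted p = 0.000135).

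In frumut H3K4me3 fell at CG12177 (82.5 ± 17.4 against 133 ± 12.2 in CS, -0.70, adjusted p = 3.14e-05) and at sws, a lysophospholipase gene whose loss causes neurodegeneration (30.8 ± 8.24 against 52.3 ± 7.95, -0.78, adjusted p = 0.00583). The sws call was lost on whole reads in both edgeR and DESeq2. At CR18275 and CG32817 (X:478971-479304) the values were 3.603 to 11.4 in frumut and 16.00 to 39.1 in CS (-1.72, adjusted p = 9.09e-08). A peak over no gene, between CG32819 and DIP1 (X:21623723-21624589), rose in frumut, with values of 49.2 to 61.6 against 12.2 to 30.7 in CS (1.33, adjusted p = 1.46e-05).

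H3K4me3 rose in 3 mutants at a weak peak in hangover (hang), which encodes a zinc finger protein of the ethanol and stress response (X:16428483-16428818). Its values were 25.8 ± 6.03 in Or67dmut, 37.1 ± 8.67 in frumut and 35.5 ± 8.65 in dsxmut, against 13.1 ± 1.28 in CS. The changes were 0.90, 1.40 and 1.34, with adjusted p of 0.00316, 5.03e-06 and 1.55e-05, and in Or47bmut 0.64 (0.242). No CS library overlapped with any mutant library, and CS had the lowest mean of the 5 groups. A difference of CS enters all 4 comparisons. The Or67dmut call was lost with the spread as a covariate. In Or67dmut H3K4me3 rose also at CG8916 (165 ± 21.9 against 94.97 ± 18.3, 0.80, adjusted p = 6.38e-06), a call that held under every setting. At CG32767 H3K4me3 rose in Or47bmut (24.6 ± 6.95, 1.24, adjusted p = 0.00812), Or67dmut (22.8 ± 8.75, 1.10, adjusted p = 0.00413) and dsxmut (23.3 ± 11.8, 1.07, adjusted p = 0.0158), against 10.3 ± 4.56 in CS. The Or47bmut call was lost with edgeR and DESeq2 on whole reads, and the Or67dmut and dsxmut calls with edgeR and with the spread as a covariate. The 3 comparisons share the CS libraries.

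Among the listed genes, read at the strongest peak of each, RNAPolII changed at 2 pigment genes and per. White (w) encodes a transporter of pigment precursors. At its RNAPolII peak, X:2788922-2793646, which overlaps CG32795 and kirre as well, the lowest, median and highest values were 303, 380.1 and 404 in Or47bmut, 159, 177 and 213 in Or67dmut, 229, 255 and 289 in frumut and 300.0, 373 and 396 in dsxmut, against 253, 275 and 311 in CS. Or67dmut fell below all CS libraries (-0.60, adjusted p = 7.97e-06). Or47bmut (0.41, adjusted p = 0.0051) and dsxmut (0.39, adjusted p = 0.00506) rose with 1 library each within the CS range, and frumut did not pass (-0.11, adjusted p = 0.652). The labels give w- for dsxmut alone. Around white, 5 RNAPolII peaks were counted after their values were seen: 1 rose in Or47bmut, 2 fell in Or67dmut, none passed in frumut, and 1 rose and 2 fell in dsxmut, in limma. Of all X peaks RNAPolII rose at 0.0208% in Or47bmut and fell at 0.187% in Or67dmut. In dsxmut it rose at 0.27% and fell at 0.809%. Of 3 H3K4me3 peaks around white, also counted after their values were seen, 2 fell in Or67dmut and 1 rose in dsxmut. The larger fall, over kirre and w (X:2791879-2793105), was -1.99 (adjusted p = 2.52e-10, limma) and held under every setting. Or47bmut and frumut had none called. The peak in kirre at X:2799138-2799892 was 0 in all 6 dsxmut libraries, against 23.7 ± 3.52 in CS. That is at least 7.20-fold lower, with the floor at 3 reads per library, a bound that covers counting error only. It was 23.1 in Or47bmut, 18.7 in Or67dmut and 18.7 in frumut.

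At yellow (y), a gene of cuticle pigment, RNAPolII fell in 3 of the 4 mutants, though the labels name no yellow allele; the peaks there overlap CG32816 too, and the counts hold no strand. At X:359650-361132 the values were 19.3, 31.3 and 49.9 in Or67dmut, 25.9, 30.6 and 48.2 in frumut and 23.9, 31.02 and 45.1 in dsxmut, against 64.1, 73.8 and 98.4 in CS (lowest, median and highest). All libraries of the 3 mutants lay below all 6 of CS. The changes were -1.26, -1.23 and -1.25, with adjusted p of 2.43e-05, 5.57e-05 and 2.82e-05. In Or47bmut the peak had 52.98 ± 6.66 (-0.52, adjusted p = 0.365), between the other mutants and CS and also below all CS libraries. The neighbouring peaks at X:353188-354582 and X:355316-356902 fell in the same 3 mutants, while X:348936-349334 did not pass in any. The 4 peaks were set side by side after their values were seen. Over all X peaks RNAPolII fell at 0.187% in Or67dmut, 0.415% in frumut and 0.809% in dsxmut. H3K4me3 had no peak over yellow in the range tested.

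At lncRNA:flam, the flamenco locus that gives rise to piRNAs against transposons, RNAPolII rose in dsxmut. At X:21667170-21668198 the lowest, median and highest values were 21.5, 36.5 and 49.9 in dsxmut and 3.003, 4.94 and 9.04 in CS (log2 change 2.52, adjusted p = 5.07e-05). At X:21769036-21770936 they were 33.3, 51.9 and 76.7 in dsxmut and 8.01, 16.2 and 20.8 in CS (1.78, adjusted p = 3.04e-06), again without overlap. Of the 10 RNAPolII peaks over flam, 7 rose in dsxmut and 0 fell. In frumut 2 rose and 1 fell, X:21749445-21751623 (20.5 ± 6.62 against 44.7 ± 9.24, -1.13, adjusted p = 0.000472), and in Or47bmut and Or67dmut none passed in limma, with changes of -0.40 to 0.68. The 10 peaks were counted after their values were seen, and 4 of them had been named by size of change. Over all X peaks RNAPolII rose at 0.27% and fell at 0.809% in dsxmut, and at 0.125% and 0.415% in frumut. Flamenco consists of transposon remnants with near-identical copies elsewhere. No source used here states how reads that match several copies were placed, so these values are uncertain as to place.

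**Figure D5:**
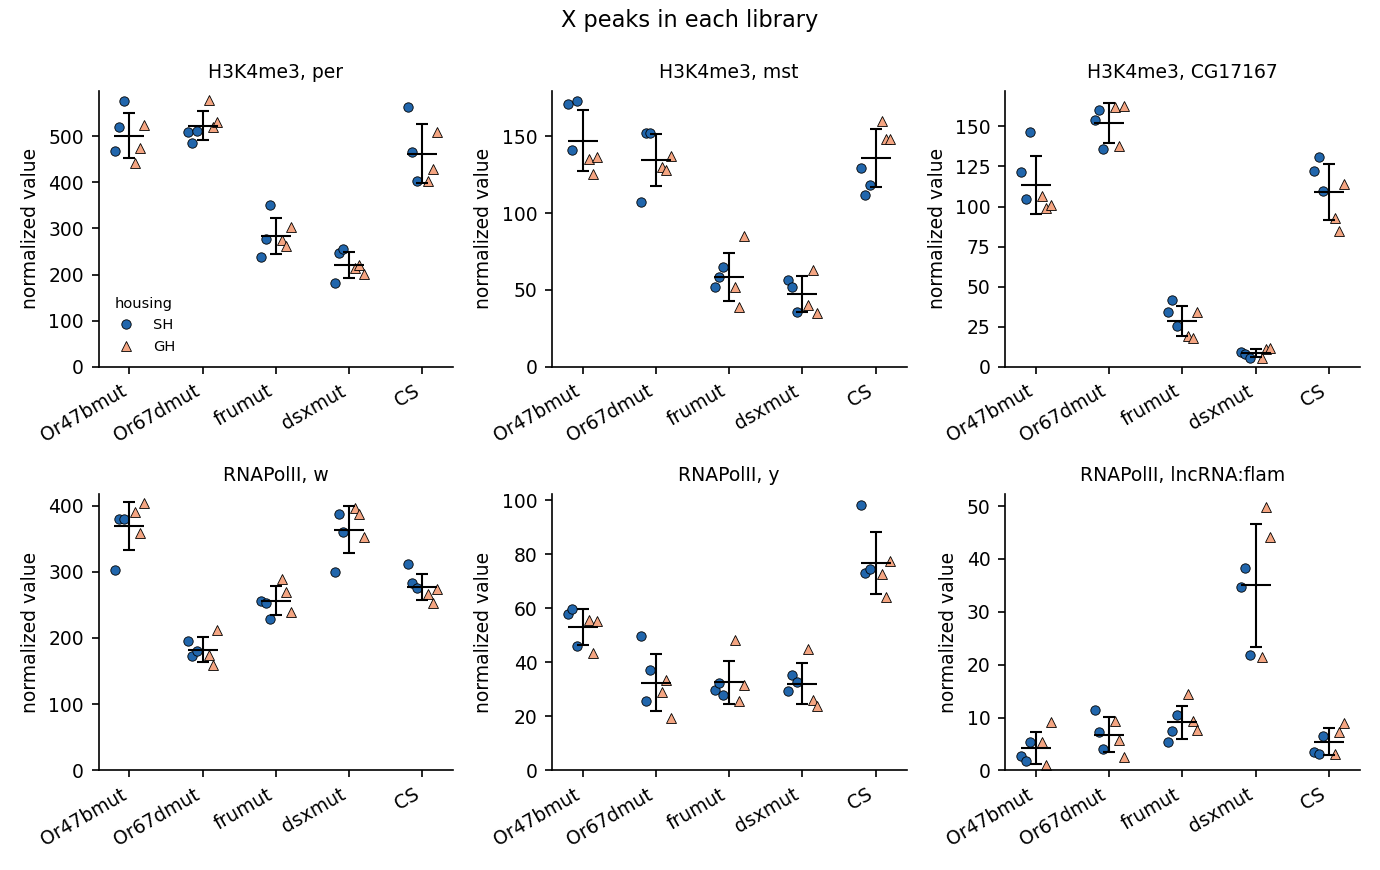
Normalized value in each library (vertical axes, from 0) at 3 H3K4me3 peaks (per, mst, CG17167) and 3 RNAPolII peaks (w, y, lncRNA:flam) by genotype, with SH as circles, GH as triangles and bars for the mean ± SD of 6 libraries. The frumut and dsxmut points at per, mst and CG17167 lie below all CS points, and at lncRNA:flam the dsxmut points, 21.5 to 49.9, lie above those of every other genotype.

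RNAPolII fell to 0 or near it at 1 further X peak. The peak at X:20187697-20188177, over no gene and between CR33496 and Sdic3, was 0 in all 6 dsxmut libraries and in 5 of 6 frumut libraries, with 1 read in the sixth. It was 23.6 ± 3.28 in Or47bmut and 19.7 ± 8.79 in Or67dmut, against 18.03 ± 4.21 in CS. For dsxmut this is at least 5.49-fold lower, by the same floor, and the adjusted p was 2.55e-12 in dsxmut and 2.57e-11 in frumut. Sdic genes, which encode a sperm dynein chain, are a tandem cluster of near-identical copies, so the place of these reads is uncertain too. The peak between nAChRalpha3, a nicotinic receptor gene, and CG1387 (X:8371094-8375414) had 29.5 to 43.5 in dsxmut and 115 to 139 in CS (log2 change -1.75, adjusted p = 9.94e-13). The other 3 mutants lay near CS there, with means of 108 to 118. A peak over no gene between lncRNA:CR44765 and CG11106 (X:11196055-11199526) moved in opposite directions: it fell in Or67dmut (68.3 ± 14.1, -0.70, adjusted p = 0.000962) and rose in dsxmut (194 ± 21.6, 0.82, adjusted p = 9.03e-05), against 111 ± 18.6 in CS.

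In frumut, RNAPolII rose over Flo2, a flotillin gene, and Eo (106 to 139 against 57.8 to 72.9 in CS, 0.90, adjusted p = 2.87e-05), and within SK, the gene of a calcium-activated potassium channel (41.9 ± 5.91 against 21.8 ± 5.48, 0.94, adjusted p = 0.0069). It fell at 2 weak peaks close together, at Ser6, a serine protease gene (2.39 ± 1.91 against 12.1 ± 3.45, -2.13, adjusted p = 0.0005), and CG1304 (5.58 ± 2.45 against 16.6 ± 4.44, -1.50, adjusted p = 0.0131). It fell too within Ac13E, an adenylyl cyclase gene (4.35 ± 2.16 against 13.6 ± 3.09, -1.52, adjusted p = 0.000133). In dsxmut it fell within sidekick (sdk), a gene of cell adhesion in the visual system (4.09 ± 2.17 against 16.98 ± 10.8, -1.75, adjusted p = 0.000473).

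Lists of X genes were read at the strongest peak of each gene. Of the genes of sex determination and dosage compensation, 5 of 9 on X had an H3K4me3 peak and all 9 an RNAPolII peak. The roX1 peak (X:3860464-3862802) was 1178 ± 75.2 in Or67dmut and 987 ± 137 in CS (0.26, adjusted p = 0.0204). H3K4me3 rose in Or67dmut also at Sxl, the switch gene of sex determination (0.35, adjusted p = 0.00618), and at roX2. The median change of the 5 genes in Or67dmut was 0.26, against 0.20 over all X peaks, 0.24 over the strong X peaks, to which all 5 belong, and -0.06 over all tested peaks. The 3 of 5 stand beside 51.2% of strong X peaks called higher. In the other 3 mutants none of the 5 was called, and none of the 9 RNAPolII peaks was called in any mutant. RNAPolII at roX2 had 591 ± 34.1 in dsxmut and 655 ± 46.9 in CS. At mof it had 124 ± 16.2 and 136 ± 18.5.

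The H3K4me3 calls of the other lists in Or67dmut stand beside 51.2% of strong, 5.94% of weak and 27.0% of all X peaks called higher. With the spread as a covariate 3 X peaks were called in all. Several lists hold weak peaks too, with lowest means of 10.2 in transcription factors, 11.4 in pigment genes and 15.5 in learning genes. All channel and ribosomal peaks were strong, with lowest means of 280 and 324. Ribosomal protein genes had 9 of 11 higher, with a median change of 0.30. RpS15Aa, of the small subunit, had 1023 ± 109 in Or67dmut against 792 ± 91.5 in CS (0.37, adjusted p = 0.00243). Genes of Notch, Wnt and Hedgehog signalling had 6 of 10 higher, among them arm. Channel genes had 4 of 9, with cac, the calcium channel of transmitter release, at 1160.3 ± 74.7 against 976 ± 134 (0.26, adjusted p = 0.0223). Learning and synapse genes had 5 of 17, transcription factors 4 of 11 and pigment genes 3 of 7 higher. Of the transcription factors, whose median change was 0.14, the homeodomain genes ct and exd rose, ct to 805 ± 60.99 against 602 ± 94.9 (0.43, adjusted p = 0.00131) and exd to 839 ± 111 against 622 ± 188 (0.48, adjusted p = 0.0011). No list member fell at its strongest peak in Or67dmut, though weaker peaks over w (-1.99) and Dop2R (-1.35) did. None of the 3 innexin genes with a peak was called in limma in any mutant.

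In dsxmut 2 ribosomal protein genes of 11, 2 channel genes of 9, 2 signalling genes of 10 and 2 pigment genes of 7 rose in H3K4me3. These calls are at the strongest peak of each gene, where per was the 1 member to fall. A weak peak within Dop2R, of the learning list, fell as well (-1.35, adjusted p = 0.0346 in limma). Of all strong X peaks 8.31% rose in dsxmut and 0.536% fell, against 9.44% and 0.709% of strong autosomal peaks. Of the weak X peaks 2.56% rose and 1.05% fell, against 0.664% and 2.61% of weak autosomal peaks. The pigment gene garnet (g), a subunit of the AP-3 vesicle coat, was 697 ± 39.7 in dsxmut (0.44, adjusted p = 0.00104) and 672 ± 88.9 in frumut (0.38, adjusted p = 0.00871), against 516 ± 61.5 in CS. In frumut per and inaE, a diacylglycerol lipase gene, fell out of 17 learning and synapse genes. H3K4me3 fell in frumut at 0.935% of all X peaks and 0.938% of the strong ones, against 1.15% of strong autosomal peaks. With RNAPolII the listed genes called at their strongest peak were w, y and per, the last in dsxmut. In the channel, learning, signalling, transcription factor and ribosomal lists no other strongest RNAPolII peak passed in limma in any mutant. Weaker peaks that passed include those within SK in frumut (0.94, adjusted p = 0.0069) and over inaE in Or47bmut (-0.29, adjusted p = 0.0356). The inaE call was lost with quantile normalization, edgeR and DESeq2, and without the libraries that stood apart.

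Housing gave no X peak that passed in limma without a replicate block. Single against group housing, over all genotypes and 15 libraries against 15, called 0 X peaks and 0% of autosomal peaks with either antibody in limma, and edgeR and DESeq2 on whole reads called 0 X peaks too. At an unadjusted p under 0.05 there were 79 X peaks with H3K4me3 (4.93%) and 201 with RNAPolII (4.17%). Within the genotypes 0 X peaks were called either, against 0.0389% of autosomal H3K4me3 peaks and 0% of those of RNAPolII. Unadjusted, Or47bmut had 491 X peaks with H3K4me3 under 0.05 (30.6%, against 25.8% of autosomal peaks), with a smallest adjusted p of 0.0631, and the other genotypes had 26 to 66. The spread was wider in the SH libraries of Or47bmut, 6.32 to 6.92 log2 units against 5.79 to 6.20 in its GH libraries. With the spread as a covariate the median change of the X peaks there was -0.02, against 0.22 without it. With the replicate number as a block, limma called 344 X peaks in Or47bmut with H3K4me3, 323 of them higher (21.4% of X peaks against 16.8% of autosomal ones). The deviations of SH and GH libraries of the same number correlated there at 0.0836, 0.0415 and 0.219. DESeq2 on whole reads called 85 X peaks with H3K4me3, all in Or47bmut (5.3% against 4.22% of autosomal peaks), and edgeR 0. With RNAPolII both called 0. A difference of the housing effect between a mutant and CS was called at 0 X peaks and 0% of autosomal peaks with either antibody. At an unadjusted p under 0.05 it had 267 with H3K4me3 (16.6%, against 16.4% of autosomal peaks) and 552 with RNAPolII (11.5% against 10.7%) in at least 1 mutant. With H3K4me3 DESeq2 called 94 (5.86% against 4.6%) and edgeR 4, all in Or47bmut.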

How the data were processed

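CUT&RUN libraries of male brains went into groups by genotype and housing, per the labels, and table columns were joined to samples by library name. Per the labels' protocols, reads were 75 bp in pairs. The submitters' processing notes name ChIPseeker, DESeq2, MACS2, Bowtie2 and Trim Galore. Of the genome build, the merging of peaks and the placing of reads with several matches, nothing is stated in these sources. Each antibody has 1 deposited table of signal, in which the authors scaled the reads of a peak by a factor of the library: the values are whole multiples of that of 1 read. Whole reads were recovered for 26 and 28 libraries and used for depth and for edgeR 4.0.16 and DESeq2 1.42.0.

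X peaks with a mean of at least 10 were kept. Log2(value + 1) was fitted over all tested peaks with limma 3.58.1 in R 4.3.3 (10 group means, eBayes with a trend), adjusted by Benjamini-Hochberg within a comparison at 0.05, two-sided. The fit was tested on simulated data. Levels per library were compared by exact permutation of 6 against 6, and housing by 100000 permutations within genotype, adjusted over 10 tests. Interval and floor statements cover counting error only, and p-values measure the spread between these biological replicates. Peaks were named from gene spans of the RefSeq Release 6 table, used for names only; positions are those of the tables.

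Named peaks were, per antibody and comparison, up to 5 each way with the largest change among those called whose libraries did not overlap; the 5 of highest mean; the 5 of smallest F test p; the strongest peak of genes in 9 lists; and peaks called in all 4 mutants, of which there were none in limma. Members and lists were chosen with earlier results of these data known. Alternatives were a pseudocount of 5, no filter, centring on autosomes, quantile normalization, a spread covariate, a replicate block, count tests, and leaving out libraries. Deviations of libraries from their group mean were correlated by replicate number. SH against GH gave 0.135, 0.125 and 0.317 in H3K4me3 of frumut, where the block left the count of X peaks at 0. It gave 0.0836, 0.0415 and 0.219 in H3K4me3 of Or47bmut and 0.0921, 0.323 and 0.407 in its RNAPolII. Mutant against CS ran from -0.0976 to 0.313 in H3K4me3 and from -0.234 to 0.118 in RNAPolII. The column names of the CS libraries carry replicate numbers that differ from those of the sample titles. The title numbers were used, also for the block.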

Additional observations from a re-analysis of the deposited data

How the results depend on the processing

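Of 92 named pairs of peak and comparison, 51 were called under all settings and without any 1 library; 29 were lost with the spread covariate, 26 with edgeR, 14 with quantile normalization, 11 with DESeq2, and 29 without at least 1 library. With H3K4me3 in Or67dmut the peak over mRpS14 turned to -0.0168 and that over peng to -0.00981 under quantile normalization, and that over Gbeta5 to -0.0162 there and -0.0376 with the covariate. The H3K4me3 counts of X peaks called moved most. Or47bmut (2) had 9 under quantile normalization, 0 with edgeR and 0 with DESeq2. Or67dmut (474) had 928 after centring (which moved the median change of all peaks from -0.06 to 0.20), 123, 79 and 186 under quantile normalization, edgeR and DESeq2, and 3 with the covariate. For frumut (41) quantile normalization gave 100 and DESeq2 27. For dsxmut (97) centring gave 279, the covariate 27, edgeR 51 and DESeq2 61. The F test (281) gave 625 after centring, 135 with the covariate and 159 with edgeR. Splits of higher and lower moved to 39 and 8 in frumut after centring, 62 and 17 in Or67dmut and 39 and 12 in dsxmut with edgeR, and 7 and 2 in Or47bmut under quantile normalization. With the replicate number as a block, the H3K4me3 counts were 8 in Or47bmut, 80 in frumut, 348 in dsxmut and 653 in the F test. For housing within a genotype the block gave 344, all in Or47bmut. Correlations of deviations by number between mutant and CS libraries ran from -0.0976 to 0.313 in H3K4me3. For housing DESeq2 gave 85, and for its difference between mutant and CS edgeR gave 4 and DESeq2 94. With RNAPolII the covariate gave 51, 50, 62 and 122 in Or47bmut, Or67dmut, frumut and dsxmut and 139 in the F test. Without the 3 libraries that stood apart Or67dmut had 33, frumut 58, dsxmut 199 and the F test 121, and edgeR gave 1 in Or47bmut and 5 in Or67dmut. The cause of these moves was not tested. Leaving out 1 library at a time, the H3K4me3 counts ran from 1 to 7 in Or47bmut, 133 to 696 in Or67dmut (218 without CS SH 2, 273 without Or67dmut GH 3, 215 without Or67dmut SH 3), 21 to 87 in frumut (27 without CS GH 2, 80 without CS GH 3, 25 without CS SH 2), 37 to 339 in dsxmut (174 without frumut SH 3, 207 without dsxmut SH 1, 38 to 53 without CS GH 1, CS SH 2, dsxmut GH 3, SH 2 or SH 3), 0 to 29 for housing in a genotype (29 without Or47bmut SH 1, 19 without frumut SH 3), 0 to 12 for its difference (12 without CS GH 2) and 163 to 528 in the F test (moved by CS GH 2, CS GH 3, CS SH 2, Or67dmut GH 3, SH 2 and SH 3, and frumut SH 3). RNAPolII counts ran from 1 to 4 in Or47bmut, 5 to 11 in Or67dmut, 16 to 30 in frumut, 35 to 84 in dsxmut (84 without Or67dmut GH 3) and 51 to 79 in the F test. The H3K4me3 X minus autosome level of 1.16 was 0.392 in summed values and -0.176 over strong peaks; the RNAPolII level of -1.61 was -1.52 with a pseudocount of 5, -1.16 summed, -0.407 per kb and -0.465 over strong peaks. Strong peaks alone were added after seeing the data. For Or67dmut minus CS the level change of 0.41 was 0.406 with no filter (adjusted p = 0.0649), 0.0225 summed, 0.41 with the block (adjusted p = 0.0955), -0.0199 over strong peaks, and 0.354 to 0.471 without 1 library, with an adjusted p of 0.0649 when any 1 of 5 Or67dmut libraries (not SH 1) was left out (0.389 to 0.421); for Or47bmut it was -0.0236 summed and -0.0478 over strong peaks. The RNAPolII change of dsxmut ran from -0.0769 to -0.0571, passing at 0.0433 without CS GH 1, CS SH 3 or dsxmut GH 3. Weak peaks near the limit of 10 rest on few reads, which limits what can be seen there.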

Other observations

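At the low end of the H3K4me3 scale, besides the fall at white, 3 named weak X peaks fell in Or67dmut over genes with known roles: Dop2R, a dopamine receptor gene (5.204 ± 2.000 against 15.7 ± 7.99 in CS, -1.35, adjusted p = 0.0112), Yp2, a yolk protein gene (9.901 ± 4.75 against 22.5 ± 9.01, -1.20, adjusted p = 0.00685), and AdamTS-B, a metalloprotease gene (16.3 ± 6.09 against 36.5 ± 10.9, -1.14, adjusted p = 0.00081). Dop2R passed in dsxmut as well (-1.35, adjusted p = 0.0346), and AdamTS-B in frumut (-0.86, adjusted p = 0.0458) and dsxmut (-0.83, adjusted p = 0.0363). Each is an adjusted p of limma over 6 libraries a side. All calls at Dop2R, Yp2 and AdamTS-B were lost with the spread of the library as a covariate. Weak rises in frumut were at Actn, the alpha-actinin gene (29.1 ± 7.61 against 10.4 ± 4.52, 1.46, adjusted p = 0.000532), and Drak, a kinase gene (16.6 ± 4.16 against 6.83 ± 3.69, 1.28, adjusted p = 0.0258). The RNAPolII peaks of the last 4 Mb of X, from 20 to 24 Mb, numbered 386 and 144 in the 2 windows, against 332 to 493 in the windows before. Of them 32.9% and 19.4% lay over no gene, against 5.43% to 24.8% in the windows before, so only the first share lay outside that range.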
